A study of Mus musculus with 4 samples.

Results

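The nuclear genes of oxidative phosphorylation (OXPHOS) were examined in nascent RNA of DP thymocytes, the CD4+CD8+ stage of T cell development in the thymus, with and without Tox4. Members were all rows of the deposited fragment count table whose symbol begins with Nduf, Uqcr, Atp5 or Cox4 to Cox8, plus Sdha, Sdhb, Sdhc and Sdhd, which gave 94 of 24984 genes. By symbol they fell into 39 subunit genes and 8 assembly factor genes of complex I, 4 genes of complex II, 8 of complex III, 18 of complex IV and 17 of complex V. Of these, 85 had a mean of at least 1 CPM (fragments counted for the gene, scaled to the same library total) over the libraries and entered the comparison. The study asked whether Tox4, an HMG-box protein that acts on RNA polymerase II, changes the output of genes, and it measured that output by TTchem-seq, in which cells take up 4-thiouridine for a brief time and the RNA that carries it is purified and sequenced. The WT libraries came from 2 samples labelled Tox4;F/F and the cKO libraries from 2 samples labelled Tox4;F/F;Lck+. Per the study's methods, both genotypes carry loxP sites around exons 4 to 6 of Tox4 on the C57BL/6 background, the Lck proximal promoter drives Cre from the DN3 stage in cKO mice only, the controls are littermates, and thymi were taken at 6 to 8 weeks of age.

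Oxidative phosphorylation takes place in the inner mitochondrial membrane. Complexes I and II pass electrons from NADH and succinate to ubiquinone, complex III passes them to cytochrome c, complex IV passes them to oxygen, and complex V, the ATP synthase, uses the proton gradient that results. Most subunits are encoded in the nucleus and a small set in mitochondrial DNA, so the output of both genomes has to be matched. Several subunits of complex IV exist as a widely expressed form and a form of heart, skeletal muscle or testis. The table held 0 rows of mitochondrial genes, so the mitochondrial share of the system was not analysed here.

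Promoter windows were read first for the letters that regulators of these genes are known to bind. RefSeq windows of 300 bases (GRCm38.p6, 250 before to 50 after the start) were matched for 71 of the 85 genes that passed and for 4 of the 9 that did not. Cox6a1, a widely expressed complex IV subunit, and Atp5k, a membrane subunit of the ATP synthase, are shown because their windows hold both an NRF1 and an ETS motif. Cox8a and Cox8b, the widely expressed and the muscle form of another complex IV subunit, are shown because the first was transcribed here and the second was not detected. Capitals mark the NRF1 motif (GCGCATGCG), the ETS motif bound by GABPA (CCGGAAG) and the TATA motif (TATAAA), on either strand, and the windows lie at chr5:115348909-115349208, chr5:108434350-108434649, chr19:7217567-7217866 and chr7:140900397-140900696, all on the minus strand.
Cox6a1: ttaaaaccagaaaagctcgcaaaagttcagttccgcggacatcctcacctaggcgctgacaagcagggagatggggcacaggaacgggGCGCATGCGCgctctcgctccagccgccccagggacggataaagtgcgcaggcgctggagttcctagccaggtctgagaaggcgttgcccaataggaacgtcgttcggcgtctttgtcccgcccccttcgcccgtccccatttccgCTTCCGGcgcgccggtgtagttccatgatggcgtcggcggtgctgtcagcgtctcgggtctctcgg
Atp5k: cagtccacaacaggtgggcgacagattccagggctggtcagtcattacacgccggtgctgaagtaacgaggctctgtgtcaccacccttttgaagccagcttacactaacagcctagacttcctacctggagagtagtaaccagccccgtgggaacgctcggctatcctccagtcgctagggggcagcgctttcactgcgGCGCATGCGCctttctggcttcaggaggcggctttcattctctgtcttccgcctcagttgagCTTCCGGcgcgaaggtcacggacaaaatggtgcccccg
Cox8a: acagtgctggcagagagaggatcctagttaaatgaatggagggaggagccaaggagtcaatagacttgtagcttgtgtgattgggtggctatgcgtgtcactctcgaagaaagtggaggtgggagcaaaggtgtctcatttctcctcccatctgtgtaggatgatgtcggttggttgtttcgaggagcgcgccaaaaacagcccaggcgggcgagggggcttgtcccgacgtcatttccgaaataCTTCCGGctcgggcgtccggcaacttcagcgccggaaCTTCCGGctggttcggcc
Cox8b: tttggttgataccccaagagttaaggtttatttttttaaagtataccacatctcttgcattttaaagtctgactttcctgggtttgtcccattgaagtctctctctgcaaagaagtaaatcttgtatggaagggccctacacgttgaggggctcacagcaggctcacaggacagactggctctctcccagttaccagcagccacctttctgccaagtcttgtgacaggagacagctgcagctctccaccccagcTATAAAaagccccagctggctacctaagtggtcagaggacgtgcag

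The NRF1 motif was in the windows of 10 of the 71 genes (14.1%), against 4.19% of the windows of all genes that passed the level filter and 2.45% of all windows matched. A longer form of the motif, with a closing C, had been counted first, and it was in 7 windows (9.86%), against 2.41% and 1.35%. The 10 genes were Ndufa8, Ndufa11, Ndufaf4, Ndufaf5, Uqcrc1, Uqcr11, Cox6a1, Atp5g2, Atp5k and Atp5l, so each complex but complex II was represented. The ETS motif was in 18 windows (25.4%), against 20.4% and 11.9%. The YY1 motif (AAGATGGC) was in 9 windows (12.7%), against 5.21% and 3.26%, and its genes were the complex I subunits Ndufc1, Ndufa3, Ndufa9, Ndufb8, Ndufs4, Ndufs6 and Ndufs7, the assembly factor Ndufaf8 and the ATP synthase subunit Atp5j2. A CCAAT box was in 43.7%, against 39.7% and 38.9%. The TATA motif was in 8.45%, against 6.37% and 12.8%, and in the Cox8b window it lies at +4, after the annotated start. CpG pairs, a mark of promoters active in many tissues, numbered 32 in the Cox6a1 window, 19 in that of Atp5k, 19 in that of Cox8a and 2 in that of Cox8b. The median was 20 over the members that passed and 22 over all genes that passed. These matches are descriptions of letters in a window, and no test was made of them.

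**Figure D1:**
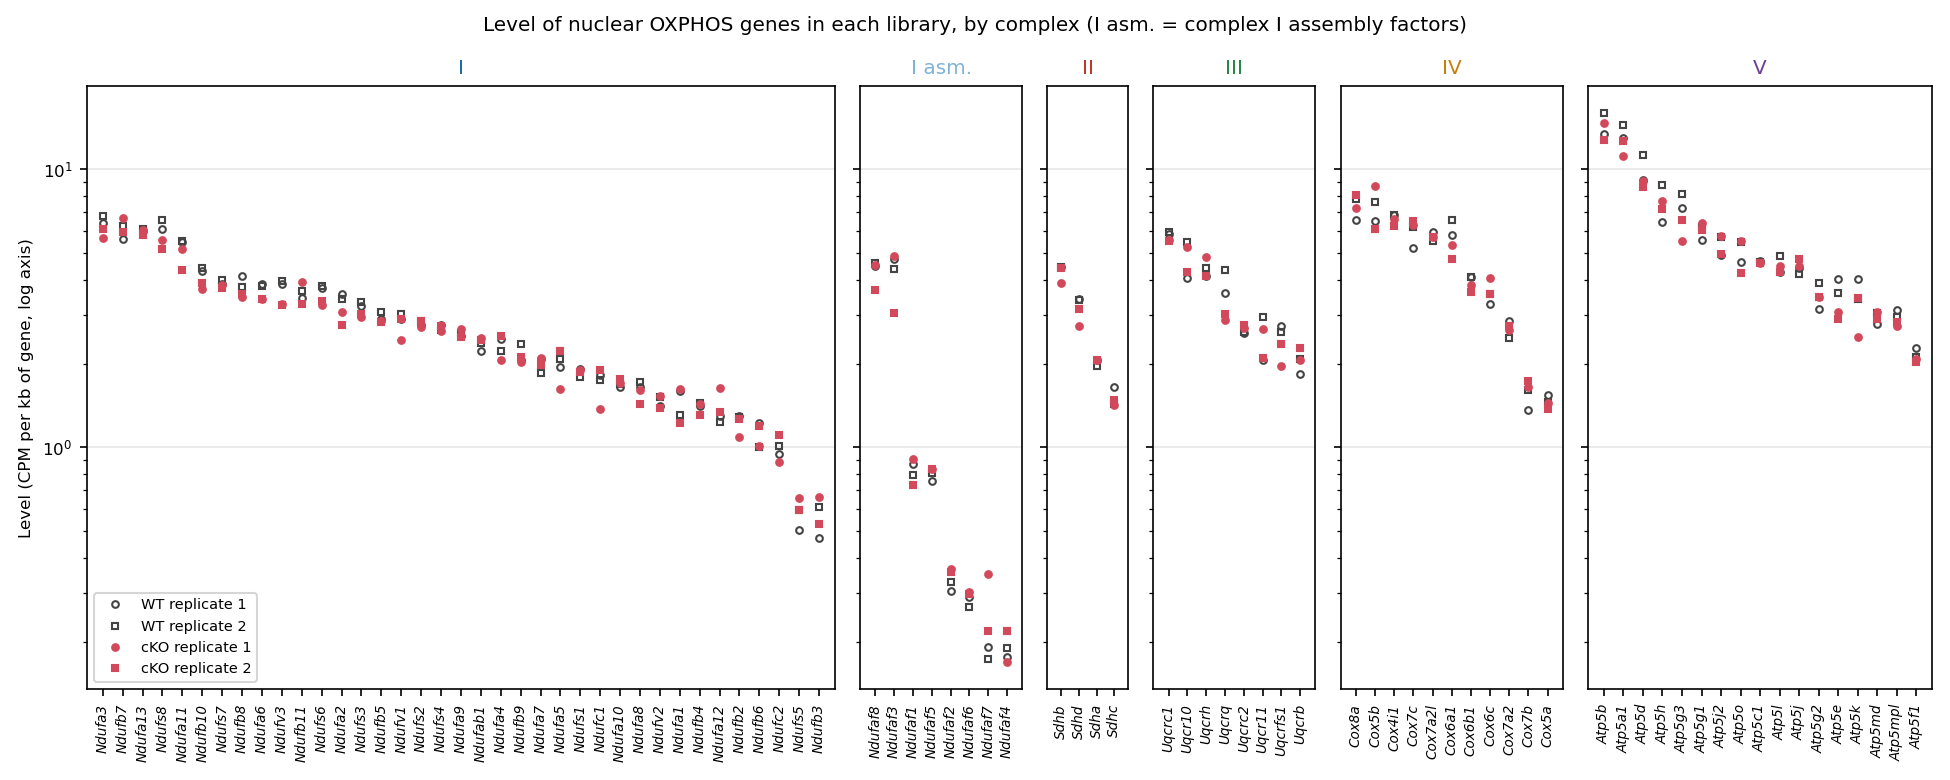
Level of each of the 85 OXPHOS genes in CPM per kb of gene length (log axis) in each library, ordered within each complex; open symbols are WT, filled symbols cKO, circles replicate 1 and squares replicate 2. Atp5b and Atp5a1 stand highest, and 6 of the 8 complex I assembly factors lie under 1 CPM per kb. Both cKO symbols lie below both WT symbols in 30 genes (35.3%, all genes 24.0%) and above them in 12 (14.1%, all genes 24.9%).

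Levels are given per kb of the deposited gene length, which spans introns, so that genes can be set beside each other. The median over the 85 genes was 3.17 CPM per kb, against 1.46 over the 11625 genes that passed. Much of the OXPHOS set is short, with a median length of 7.28 kb against 22.65 kb, and short genes had higher levels per kb. Among all genes shorter than 7.279 kb the median was 2.84 CPM per kb, and among the members that short it was 3.62. Among longer genes the medians were 1.25 and 2.56. Without division by length, the order of members and all genes reversed, with the members 0.22 lower on the log2 scale. The 94 genes together took 0.257% to 0.271% of the fragments of a library.

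The order of the complexes by level depended on the division by length. Medians over genes were 5.61 CPM per kb for complex IV, 4.63 for complex V, 3.06 for complex III, 2.60 for complex II, 2.56 for complex I subunits and 0.575 for complex I assembly factors. Complex IV, V and III held this order in each of the 4 libraries, and the assembly factors were lowest in each, while complexes I and II changed places in cKO replicate 1. Without division by length the order was another, with median CPM per gene of 44.5 for complex II, 31.9 for complex V, 22.9 for complex I subunits, 18.3 for complex IV, 11.7 for complex III and 6.87 for the assembly factors, and median lengths ran from 4.89 kb in complex III to 19.7 kb in complex II. Ndufa4 is counted here with complex I by its symbol, although its protein is now placed with complex IV. In complex I, the 7 nuclear core subunits, which carry the flavin and the iron-sulfur clusters, had a median of 2.81 CPM per kb, and the 30 accessory subunits that passed had one of 2.35 with a range of 0.570 to 6.24.

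In the ATP synthase the level differed between parts of the enzyme. The F1 part, which is the head where ATP is made and its central stalk, had the highest median, 9.53 CPM per kb over 5 genes. The 3 genes of the c ring that turns in the membrane had 6.06, the 4 genes of the peripheral stalk 4.72 and the 5 small membrane subunits 3.35. Atp5b, which encodes the catalytic β subunit, was the highest of all members at 14.2 CPM per kb, and its CPM was 95.1 and 112 in WT and 104 and 89.9 in cKO. Atp5a1, the α subunit that alternates with β in the head, followed at 12.8 CPM per kb. The highest level per gene, not per kb, was that of Ndufs4, an accessory subunit of complex I spread over 100.3 kb, whose WT libraries had a CPM of 275 and 265 and whose cKO libraries had 262 and 274.

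The isoform families showed 1 widely expressed form well above its tissue form. Cox4i1 (chr8:120668225-120674209) had 6749 fragments over the 4 libraries and Cox4i2, the lung and hypoxia form, 15, a 830-fold difference per kb. Cox6a1 had 3205 and the muscle form Cox6a2 12, a 72.5-fold difference. Cox7b had 1812 and Cox7b2 11. These low counts were spread over libraries of both genotypes.

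Cox8a, which completes the family shown above, had 687, 939, 687 and 791 fragments, the WT libraries first. Cox8b had 0 fragments in every library, so its level was at least 633-fold lower per kb when 3 fragments over all libraries are taken as the floor, and the testis form Cox8c had 1 fragment. Ndufa4l2, a hypoxia-induced relative of Ndufa4, also had 0, at least 290-fold below Ndufa4. These floors cover counting error only.

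Not every family was so divided. Cox6b2, the testis form of Cox6b1, had 41 and 69 fragments in WT and 29 and 31 in cKO. Its mean CPM of 0.98 put it just outside the level filter, while Ndufaf4, at 1.17 to 1.51 per library, was just inside, and per kb it stood 5.22-fold below Cox6b1. In the Cox7a family Cox7a2l was highest at 5.74 CPM per kb, Cox7a2 had 2.67 and the muscle form Cox7a1 0.114. The 3 genes for the identical c subunit of the ATP synthase were all transcribed, with Atp5g3 at 41.8%, Atp5g1 at 36.9% and Atp5g2 at 21.3% of the family's summed level per kb.

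**Figure D2:**
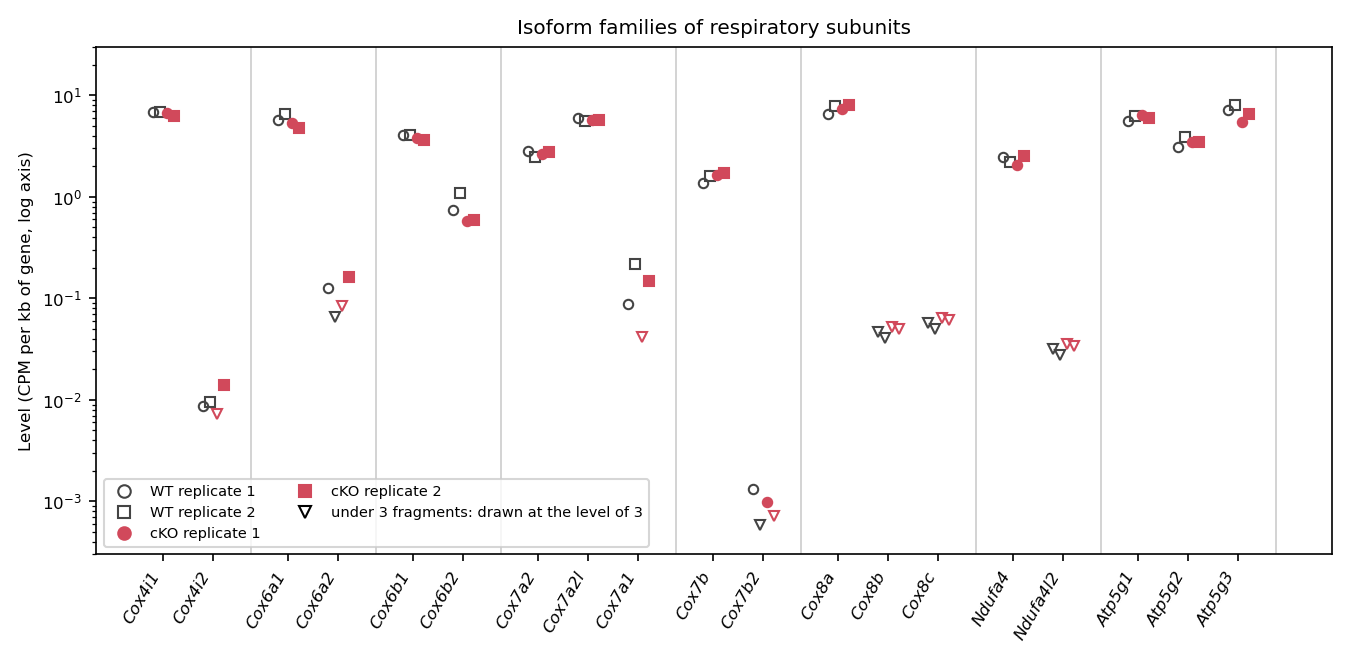
Level in CPM per kb of gene (log axis) of isoform families of respiratory subunits in each library; open symbols are WT and filled symbols cKO, and triangles mark libraries with under 3 fragments, drawn at the level of 3. Widely expressed forms lie between 1.36 and 8.14 CPM per kb in every library, and Cox8b and Ndufa4l2 had no fragment.

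The comparison of genotypes asked whether the output of these genes changed without Tox4. None of the 85 genes was called in DESeq2 at an adjusted p under 0.05 and a fold of at least 1.2, where 3.71% of all 11625 genes were (2.14% increased and 1.57% decreased). edgeR's quasi-likelihood test and limma voom also called 0, but they called only 0.499% and 0.525% of all genes, so a count of 0 among 85 says little there. The smallest adjusted p in DESeq2 was 0.217, that of Ndufv3, and Ndufaf4 had none because of its low count. At an unadjusted p under 0.05 DESeq2 gave 4 genes (4.71%), all lower in cKO, against 13.5% of all genes. That count was 1 with the length trend removed, 0 with the replicate block and 0 to 2 with a library left out. At the same threshold edgeR gave 5, against 15.6% of all genes. The study's reporting calls its genomic replicates biological, without saying how mice were divided among the 2 libraries of a genotype, and p-values measure the spread between these samples.

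The intervals show how large a change could have gone unseen. For 68 of the 85 genes (80.0%) the 95% interval of the fold change lay inside 1.5-fold in either direction, against 64.7% of all genes, and for 83 it lay inside 2-fold. The estimates were within 1.1-fold for 53 genes (62.4%, all genes 52.8%) and within 1.2-fold for 77 (90.6%, all genes 76.3%). They ran from -0.44 for Uqcrq to 0.64 for Ndufaf7 on the log2 scale.

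**Figure D3:**
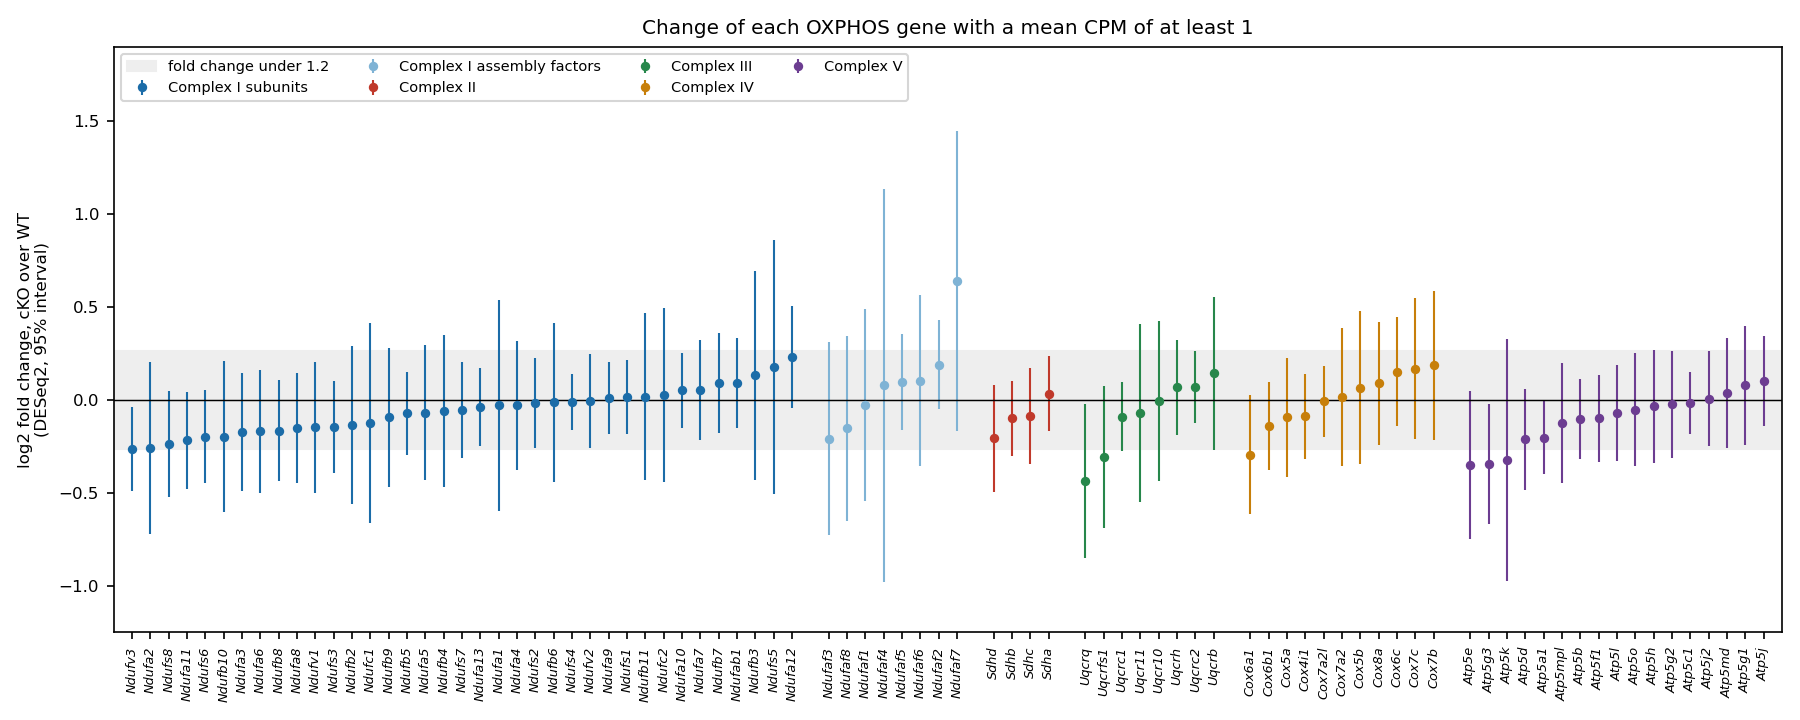
log2 fold change (cKO over WT, DESeq2) with its 95% interval for each of the 85 OXPHOS genes, ordered within each complex; the grey band marks a fold change under 1.2. Most estimates lie inside the band, and the widest intervals belong to low genes such as Ndufaf4 and Ndufaf7.

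More members lay below WT than above. The estimate was lower in cKO for 55 genes and higher for 30 (64.7% lower, against 49.8% of all genes), with a median log2 fold change of -0.04 against 0.00. With 1 library left out the lower estimates numbered 48 to 57, and the median ran from -0.08 to -0.02. In 30 genes (35.3%) both cKO libraries had a lower CPM than both WT libraries, against 24.0% of all genes, and in 12 (14.1%) both were higher, against 24.9%. DESeq2's size factors in place of library totals gave the same 30 and 12. Gene length moved with this balance. Over all genes shorter than 7.279 kb the median log2 fold change was -0.07 and over longer ones 0.01, and among the members it was -0.09 for the 42 shorter and -0.02 for the 43 longer genes. Estimates were lower for 69.05% of the shorter members, against 60.2% of all shorter genes. Among longer genes the shares were 60.47% of members and 47.3% of all.

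The replicates of a genotype also parted by length. Over the shorter members the median log2 difference of WT replicate 2 over WT replicate 1 was 0.11, and that of cKO replicate 2 over cKO replicate 1 was -0.09; the difference between genotypes over the same genes was -0.09. Once the trend of fold change with length was removed, 46 of 85 members were lower and the median was -0.01, and the median of complex III turned from -0.04 to 0.02. Its part in the lower estimates was otherwise not tested.

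**Figure D4:**
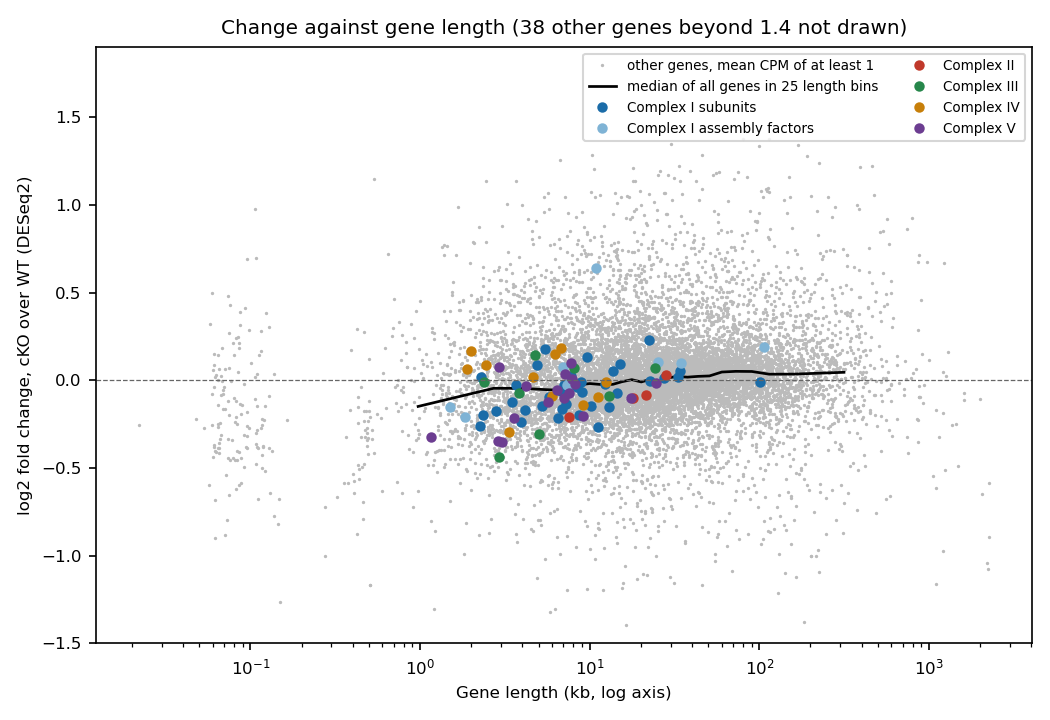
log2 fold change (cKO over WT, DESeq2) against gene length in kb (log axis) for the 11625 genes past the level filter; grey points are other genes, the line is the median of all genes in 25 length bins, coloured points are OXPHOS genes by complex, and 38 other genes beyond 1.4 are not drawn. The line lies below 0 at short lengths, where many OXPHOS genes are.

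Complex I subunits had a median log2 fold change of -0.05, with 26 of 37 lower. Ndufv3 (chr17:31520115-31531325, plus strand), a small accessory subunit beside the flavin site, had a CPM of 43.3 and 44.5 in WT and 36.8 and 36.3 in cKO. The groups did not overlap, and the log2 fold change was -0.27 (SE 0.12, DESeq2 adjusted p = 0.217, edgeR 0.258). Ndufa2, an accessory subunit of the matrix arm, had a log2 fold change of -0.26 (SE 0.24, adjusted p = 0.725) from 8.02 and 7.70 to 6.92 and 6.24 CPM. Of the 7 core subunits 6 had lower estimates, from -0.24 for Ndufs8 to -0.0051 for Ndufv2, and Ndufs1 had 0.02, where 49.8% of all genes were lower. None was called, which at a share of 3.71% over all genes says little of 7 genes. Ndufa3, the highest subunit per kb, had a log2 fold change of -0.17 (SE 0.16).

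The 8 complex I assembly factors, which help build the complex and are not part of it, had a median of 0.09. Ndufaf7, a methyltransferase that modifies a core subunit, had the largest estimate of all members, 0.64 (SE 0.41, adjusted p = 0.530), from 2.09 and 1.89 CPM in WT to 3.83 and 2.39 in cKO. Its interval reached from -0.17 to 1.45, and 1 cKO library stood apart from the other 3 libraries. Ndufaf3 had -0.21 (SE 0.26), with cKO libraries of 9.03 and 5.61 CPM on either side of the WT libraries at 8.80 and 8.07. Ndufaf8 had -0.15 (SE 0.25).

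Succinate dehydrogenase, complex II, also serves the citrate cycle. Sdha, the flavoprotein, had a CPM of 57.6 and 54.9 in WT and 57.7 and 57.5 in cKO. Sdhb, the iron-sulfur subunit, had 80.1 and 79.6 in WT and 70.1 and 79.1 in cKO. The membrane anchors were Sdhc, with 35.3 and 30.7 against 30.6 and 31.7, and Sdhd, with 25.6 and 25.4 against 20.5 and 23.7. Sdhb, Sdhc and Sdhd had estimates of -0.10, -0.09 and -0.21 and Sdha 0.03, with intervals inside 1.5-fold for all 4. Without cKO replicate 1 Sdhb was at -0.0068 and Sdhd at -0.10, and without cKO replicate 2 they were at -0.20 and -0.32.

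Complex III had a median of -0.04. Uqcrq (chr11:53427922-53430831, minus strand), a small subunit near the ubiquinone site, had 10.5 and 12.7 CPM in WT and 8.38 and 8.75 in cKO, and Uqcrfs1, the Rieske iron-sulfur protein, had a mean of 13.3 ± 0.445 (SD, n = 2) against 10.8 ± 1.37 (SD, n = 2). In both genes the groups did not overlap. Their log2 fold changes were -0.44 (SE 0.21, DESeq2 adjusted p = 0.307) and -0.31 (SE 0.20, adjusted p = 0.522), while Uqcrc1, the highest of the complex per kb, had -0.09 (SE 0.095). Without WT replicate 2 the median of the complex was 0.10 and without WT replicate 1 it was -0.16. Cyc1 encodes cytochrome c1, a catalytic subunit of this complex that the symbol rule leaves out, and it is named after its values were seen. It had 18.4 and 18.4 CPM in WT against 12.3 and 13.4 in cKO, a log2 fold change of -0.52 (SE 0.17) with an adjusted p of 0.0518 in DESeq2 and 0.144 in edgeR, so it was not called either. Cox18, which inserts a complex IV subunit into the membrane and is likewise named after its values were seen, lay as near the threshold in the other direction, with 17.2 and 16.2 CPM in WT against 22.7 and 23.3 in cKO (0.46, SE 0.15, adjusted p = 0.0556 in DESeq2 and 0.150 in edgeR).

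Complex IV had a median of 0.02, with 5 of 11 lower. Cox6a1 had 19.3 and 21.9 CPM in WT and 17.8 and 15.8 in cKO (log2 fold change -0.30, SE 0.16, adjusted p = 0.417). Cox7b moved the other way by estimate, from 9.17 and 10.8 to 11.1 and 11.7 (0.19, SE 0.20, adjusted p = 0.786). Of the widely expressed forms above, Cox4i1 had -0.09, Cox6b1 -0.14, Cox7a2 0.02, Cox7a2l -0.01 and Cox8a 0.09. Without WT replicate 2 the median of the complex was -0.05. Cox7b, Ndufa1 and Ndufb11 lie on the X chromosome. Xist, a transcript of the inactive X, had 172 CPM in WT replicate 1 and at most 2.36 in the other libraries. The study's methods state that littermates were matched for sex, and the labels give no sex. The level of those 3 genes in WT replicate 1 was within or below the range of the other libraries. What the Xist difference means for the comparison of genotypes was not tested for any gene.

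Complex V had a median of -0.07, with 13 of 17 lower, and all 5 genes of the F1 part had lower estimates, where 49.8% of all genes had. Atp5a1 had 118 and 131 CPM in WT and 102 and 115 in cKO, which is -0.20 in log2 fold change (SE 0.10, adjusted p = 0.324). Atp5e, the ε subunit, had 12.2 and 10.8 against 9.32 and 8.75 (-0.35, SE 0.20, adjusted p = 0.463). Atp5b, by contrast, overlapped between genotypes (-0.10, SE 0.11).

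The c subunit genes, whose products are the same protein, did not share an estimate. Atp5g3 (chr2:73908447-73911326, minus strand) had 20.8 and 23.4 CPM in WT and 15.9 and 19.0 in cKO, which is -0.35 on the log2 scale (SE 0.17, adjusted p = 0.299 in DESeq2). Atp5g1 had 16.2 and 18.0 against 18.7 and 17.5 (0.08, SE 0.16), and Atp5g2 25.6 and 31.9 against 28.3 and 28.3 (-0.02, SE 0.15). Whether these differ from each other was not tested. Without WT replicate 2 the median of complex V was 0.03, and without WT replicate 1 it was -0.18.

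Many OXPHOS genes start close to another gene. In 26 of the 85 (30.6%) a gene on the opposite strand started within 1000 bases upstream, against 15.6% of all genes that passed, and the starts lay a median of 95 bases apart. Of these partners 21 passed the level filter and 0 were called, where 3.71% of all genes were, so the count of 0 says little. Some partners also serve mitochondria or protein synthesis. Sdhd and Timm8b, a helper of import into mitochondria, start 52 bases apart, at 3.17 and 1.85 CPM per kb. Ndufb5 pairs with Mrpl47 of the mitochondrial ribosome, Ndufs1 with the elongation factor gene Eef1b2, and Ndufa7 with the ribosomal gene Rps28. Atp5j, a stalk subunit, overlaps the start of Gabpa, the ETS factor of the motif above, by 502 bases on the opposite strand, at 4.47 and 2.34 CPM per kb. The libraries were strand-specific, but whether counting used strand is not given in the sources used here for this table, so fragments in such overlaps are uncertain.

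Most regulators of these genes were transcribed. Of 15 listed regulators 14 passed and 0 were called, which at a share of 3.71% over all genes says little of so short a list, with 7 estimates lower and 7 higher and a median of -0.02. Nrf1, which binds the motif above, had 442 and 468 CPM in WT and 478 and 462 in cKO. Ppargc1a, a coactivator of mitochondrial genes in muscle and brown fat, was below the filter at 0.36 to 0.80 CPM, while its relative Ppargc1b had 140 and 145 against 144 and 128. Gabpa had 65.6 and 65.5 against 67.0 and 70.3, Yy1 had a log2 fold change of -0.17 (SE 0.080), and Tfb1m, a methyltransferase of mitochondrial ribosomal RNA, had 0.58 (SE 0.33, adjusted p = 0.444). A wider list of 50 genes joined assembly factors of all 5 complexes whose symbols the rule does not take (Ecsit and Acad9 of complex I among them), coenzyme Q synthesis genes, Cycs and Cyc1. Of these 49 passed, 0 were called and the median was 0.06. Of 14 citrate cycle genes 0 were called, 10 had lower estimates and the median was -0.09. Both counts of 0 stand beside the same 3.71% of all genes, and 49.8% of all genes had lower estimates.

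The libraries held 38429786 to 48690591 fragments. Tox4 had 74.0 and 70.3 CPM in WT and 59.3 and 57.2 in cKO (log2 fold change -0.31, SE 0.10, DESeq2 adjusted p = 0.0453, edgeR 0.153), and the count covers the whole locus, not the deleted exons alone. All 10 DP markers passed, summing to 5281 to 5872 CPM per library, with Cd8a and Rag1 called decreased in DESeq2 (adjusted p = 1.2e-05 and 0.04995) but not in edgeR (0.108 and 0.291). Among markers of mature T cells, Il7r was called increased and Ccr7 decreased in DESeq2 (adjusted p = 0.0125 and 0.00714) but not in edgeR (0.124 and 0.164). B cell markers summed to 4.02 to 6.04, myeloid markers to 2.59 to 4.31, erythroid markers to 0.013 to 0.48 and thymic epithelial markers to 0.75 to 1.17, with Psmb11 at 0. Their part in the OXPHOS values was not tested, and fewer cells of a type cannot be told apart from less RNA per cell in bulk samples.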

How the data were processed

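TTchem-seq was analysed in 2 WT and 2 cKO libraries. The deposited values are expected counts, that is fragments per gene, 8.61% of them not whole. The submitters' notes name fastp 0.13.1, STAR 2.7.9a, featureCounts 1.6.1 and mm10; in the study's methods fastp filtered reads and STAR aligned and counted them. Duplicates were marked and spike-in was not used for scaling. The study's methods state strand-specific libraries and, for its RNA-seq, counting by strand. Strand use in counting these values is not given in the sources used here. Total counts ignore any shift common to all genes. Values were rounded and fitted with DESeq2 1.42.0 (Wald test, Benjamini-Hochberg over the table, mean CPM of at least 1, fold of at least 1.2). Alternatives used edgeR 4.0.16, limma 3.58.1, other scalings and filters, a replicate block and the removal of each library. Scripts were tested on simulated data. Members, lists and design were chosen with earlier results of these data known. Named genes were, per complex, the 2 with the largest absolute log2 fold change and the highest per kb, plus Sdh genes, isoform families and regulators. Other genes were added to describe parts, pairs and motifs. The NRF1 motif was shortened by a letter, and the promoters to print were chosen, after motif counts had been seen. The deposited length column spans introns and is not a measurement of RNA. A marker gene and the sum of its list are not reported here.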

Additional observations from a re-analysis of the deposited data

How the results depend on the processing

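No OXPHOS gene was called under any of the alternatives run, and the smallest adjusted p among them was 0.1297 (Uqcrq, edgeR on all genes with a fragment, an alternative chosen after seeing the data). Counts over all genes did move. DESeq2 called 249 increased and 182 decreased, edgeR 48 and 10, limma voom 50 and 11, and edgeR on all genes with a fragment 494 and 344. When a WT library was dropped, DESeq2 called 113 and 71 (replicate 1) or 320 and 126 (replicate 2), and when a cKO library was dropped, 78 and 48 (replicate 1) or 61 and 28 (replicate 2). Each of these fits leaves 1 library in a genotype, which is assumed to vary like the other genotype's pair. Same-numbered libraries did not deviate together (r = -0.03 across 11625 genes, which are not independent replicates). That value cannot show whether they were handled as pairs. Rn45s, the ribosomal RNA precursor, took 2.712% of fragments in WT replicate 1 and 2.442% in cKO replicate 1. In replicate 2 it took 4.305% and 4.046%. Pairing was not tested further. With the replicate block the calls numbered 121 and 72 by DESeq2 and 19 and 9 by edgeR. Tox4 had a log2 fold change of -0.31 in both of those fits, at adjusted p values of 0.361 and 0.232. The Tox4 call was also lost in edgeR (-0.31, 0.153), limma voom (-0.31, 0.143), with total count factors (-0.31, 0.0511), with the length trend removed (-0.30, 0.0546) and with independent filtering off (-0.31, 0.0821), and in those smaller fits, where the fold stayed close (-0.34 to -0.28, adjusted p of 0.196 to 0.792). For the fits on all libraries the causes were not tested.

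Leaving out each library in turn gave these ranges of the median log2 fold change: all OXPHOS genes -0.081 to -0.023, complex I subunits -0.081 to -0.033, complex I assembly factors 0.040 to 0.10, complex II -0.16 to -0.028, complex III -0.16 to 0.10, complex IV -0.054 to 0.0005, complex V -0.18 to 0.029. Removing the length trend put complex I subunits at -0.023 and complex V at -0.033, turned complex III to 0.023, and put complex IV at 0.061. The level of members over all genes, 1.12 on the log2 scale per kb, was -0.22 per gene and 1.67 with genes of a mean CPM of at least 0.1.

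Of the 40 genes named by rule, Atp5g2 was at 0.012, Cox7a2l at 0.012, Ndufa4 at 0.0084 and Nrf1 at -0.0005 once the length trend was removed, each with its sign changed. The other 436 values under settings that kept every library held their sign. Those with independent filtering off or without the fold criterion repeat the main fold change, so they could not change sign. Leaving out each library changed the sign of 20 values and kept that of 140. The ranges of the genes concerned were Atp5b -0.23 to 0.029, Atp5g1 -0.0061 to 0.17, Atp5g2 -0.18 to 0.15, Cox7a2 -0.077 to 0.11, Cox7a2l -0.054 to 0.037, Cox8a -0.041 to 0.23, Ndufa4 -0.18 to 0.12, Ndufaf3 -0.58 to 0.092, Nrf1 -0.0074 to 0.090, Polrmt -0.22 to 0.025, Ppargc1b -0.15 to 0.0085, Pprc1 -0.15 to 0.0030, Sdhc -0.18 to 0.011, Tfam -0.040 to 0.11, Tfb2m -0.11 to 0.16. None of these genes was called. Counts of 45 to 12884 fragments per gene and library limited the lowest genes most.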
